A study of Zea mays with 56 samples.

Results

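Mu insertion sites were compared between maize plants of 2 families, ND67 and ND58, taken from the prefix of the plant names in the labels. Family ND67 gave 4 libraries, endosperm and pollen of plants 42 and 52. Family ND58 gave 10 libraries, endosperm and pollen of plants 85, 99, 105, 106 and 107. These 14 libraries, of 56 in the series, came from every plant named ND67 in its title and from the 5 ND58 plants sampled in endosperm and pollen alone. All 7 plants carry the label W22 MuActive: they descend from a Mu-active W22 father and a Mu-inactive W22 mother, so the mother's genotype is shared by both families. Endosperm was a chip of the kernel, and pollen came from the plant grown from that kernel in a greenhouse. The labels do not say how the families are related, and no treatment was applied. With 2 plants against 5, exact permutation of the family labels has 21 arrangements and cannot give a p below 0.0476. After adjustment over the 11 tests made, a result could pass only if all 11 stood at that smallest p, so missing the adjusted threshold carries little information here.

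Mu elements (Robertson's Mutator) are DNA transposons of maize. A Mu element that integrates duplicates the bases at its target, so an insertion leaves a left and a right border a few bases apart. An active plant holds insertions that it received from a parent, which are in every cell, and new insertions made in its own cells, which are in few cells when they arise late in development. A parent that carries an insertion on 1 of its chromosome copies passes it to some of its offspring and not to others, so sibling plants hold overlapping and unequal sets. A new insertion in cells that give rise to pollen can pass to the next generation, whereas endosperm, the nourishing tissue of the kernel, passes nothing on.

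MuSeq2 amplifies and sequences the junctions of Mu ends and genomic DNA, and its values are counts per insertion site. Each count was divided by the reference level of its library, the median count at 28 sites that were read in all 50 undiluted libraries, all of them also sites of the Mu-inactive parent. This ratio is called relative abundance below. An inherited site of a plant had a relative abundance of at least 0.1 in both its endosperm and its pollen, and of less than 0.01 in each of 4 Mu-inactive leaf libraries. Total counts were 1026075 and 3222143 in ND67 endosperm, and 45730 to 1675076 in ND58 endosperm. They were 546522 and 713222 in ND67 pollen, and 315933 to 745604 in ND58 pollen. Reference levels were 13840 and 29232 in ND67 endosperm and 4077.5 and 3862.5 in ND67 pollen. In ND58 they were 767.5 to 14598 in endosperm, lowest in plant 105, and 2658.5 to 7022 in pollen, lowest in plant 107. A floor of 3 counts was a relative abundance of 0.000103 to 0.000777 in the ND67 libraries and of 0.000206 to 0.00391 in the ND58 libraries.

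Some libraries held low levels of other plants' sites. Of the inherited sites of the other 6 plants that a plant did not hold itself, 0 were at 0.01 or more in the endosperms of ND67 plants 42 and 52. The ND58 endosperms of plants 85, 99, 105, 106 and 107 had 26, 15, 1, 0 and 0 such sites. Those of endosperm 85 had a median of 0.108 and those of endosperm 99 a median of 0.0228. In pollen there was 1 such site in plant 52 of ND67, at 0.0443, and 0 in 5 other plants. Pollen 105 of ND58 also had 1, at chr5:4794096-4794104, but at 0.311 (1956 counts), above the 0.224 to 0.259 in pollen of its ND58 holders 99, 106 and 107. Endosperm 105, with the lowest reference level, had 0.0834 (64 counts) at that site, so plant 105 missed the cut of 0.1 there. Fainter traces were wider: ND67 pollen 42 had counts at 24 of the 42 sites held by plant 52 alone, at 0.00221 or less. ND58 pollen 106 had counts at 30 of the 31 sites held by plant 105 alone, at 0.00285 or less. An inherited site needed 0.1 in both tissues, which the sites of endosperms 85 and 99 listed here did not reach in pollen. The pollen library of plant 99 names plant 85 in its title and plant 99 in its description. Of its 55 sites at 0.1 or more, 50 were also at 0.1 or more in endosperm 99 and 31 in endosperm 85, and it was used as plant 99.

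The ND67 plants held numbers of inherited sites within the range of the ND58 plants. Plants 42 and 52 of ND67 held 55 and 67 inherited sites. Plants 85, 99, 105, 106 and 107 of ND58 held 44, 50, 49, 53 and 78. The means were 61.0 ± 8.49 in ND67 (SD, n = 2) and 54.8 ± 13.4 in ND58 (SD, n = 5), a difference of 6.20 sites that was smaller than the spread between ND58 plants (two-sided exact permutation test, p = 0.714, adjusted over 11 tests p = 0.857). ND58 plant 107 held the most. The cut of 0.1 divided the sites with a gap in most plants: the lower of the 2 tissue values was at least 0.187 in every site held by an ND67 plant and at least 0.115 in every site held by an ND58 plant. Among sites not held, the highest such value was 0.0951 in ND67 (plant 52) and 0.0964 in ND58 (plant 105). All 29 sites of the Mu-inactive parent that were at 0.1 or more were present in all 7 plants. Of these 29, 28 were the reference sites, chosen because every undiluted library read them, so this presence was largely fixed by that choice.

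The 7 plants held 256 distinct inherited sites, of which ND67 held 102 and ND58 held 178. The sites held by ND67 and under 0.01 in every ND58 library numbered 76, or 29.7% of the 256. The sites held by ND58 and under 0.01 in both ND67 plants numbered 153, or 59.8%. Both families held 24 sites, and 3 sites were held by 1 family and lay between 0.01 and the cut in a library of the other or above the cut in 1 of its tissues. The numbers of family-only sites are not on equal terms, with 5 plants in ND58 against 2 in ND67. An ND67-only site also had to be under 0.01 in 10 libraries and an ND58-only site in 4. Over all inherited sites, shared ones included, pairs of ND58 plants together held 73 to 115 and the ND67 pair held 102. Sites that a plant held alone among the 7 numbered 29 and 42 in the ND67 plants 42 and 52, and 17, 12, 31, 26 and 45 in the ND58 plants 85, 99, 105, 106 and 107, so the families overlapped. With absence taken as 0 counts in every library of the other family, 38 sites remained for ND67 and 96 for ND58.

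**Figure D1:**
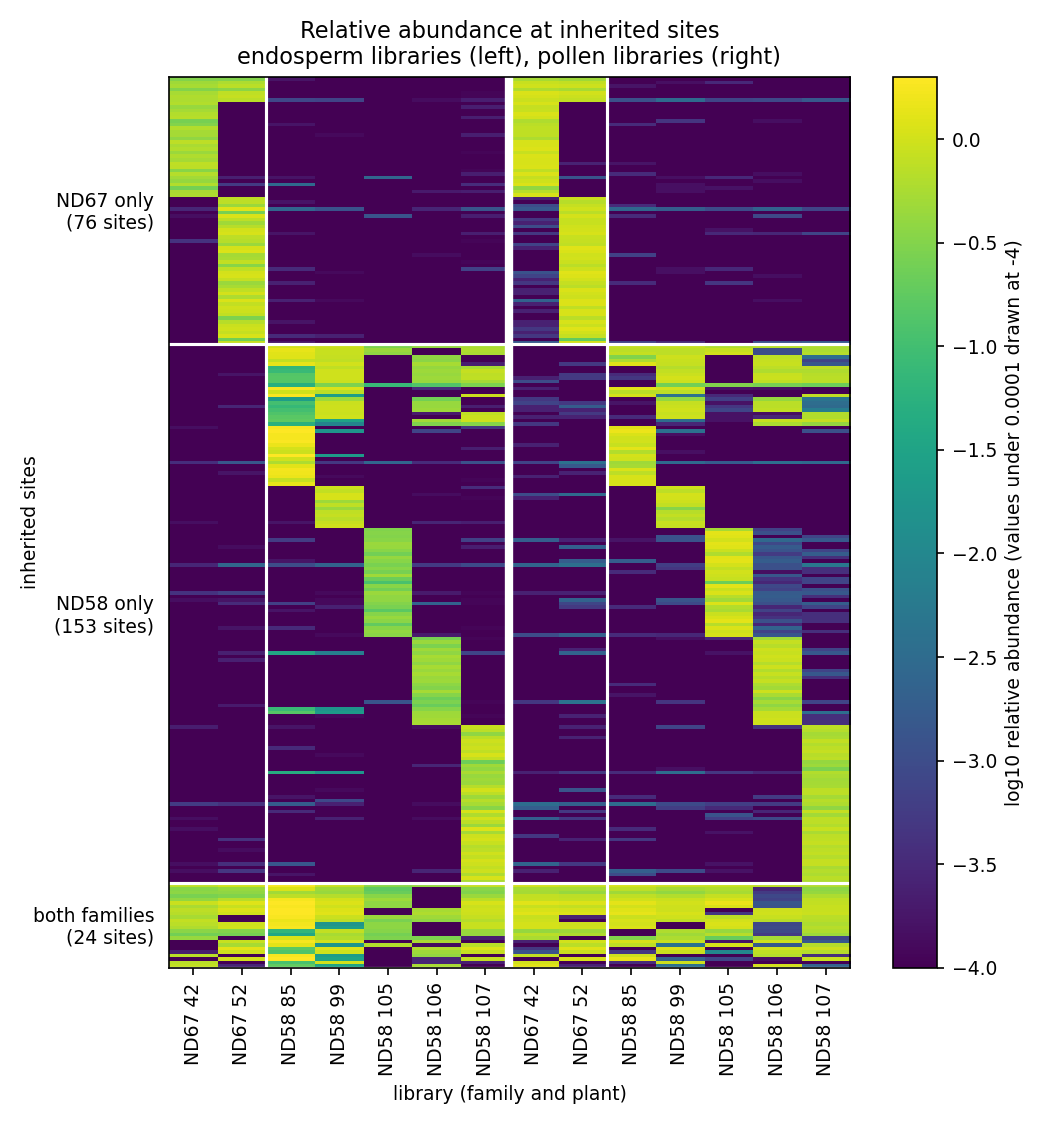
Relative abundance (log10 colour scale) of 76 ND67-only, 153 ND58-only and 24 shared inherited sites (rows) in 7 endosperm and 7 pollen libraries (columns, ND67 plants left of ND58 plants within each tissue). Most family-only sites form blocks of a single plant, and endosperm 85 shows sites of other plants at 0.0249 to 0.182 that are dark in its pollen.

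Most family-only sites were held by a single plant. In ND67, 69 of the 76 were held by 1 plant and 7 by both. In ND58, 130 of the 153 were held by 1 plant, 11 by 2, 9 by 3, 2 by 4 and 1 by all 5. The 7 sites of both ND67 plants lay on chromosomes 1, 5 and 7. On chromosome 7 a pair of them was 156705 bp apart, and on chromosome 1 another pair was 777488 bp apart. Their median relative abundance was 0.547 in endosperm 42 and 0.716 in endosperm 52, and 0.888 in pollen 42 and 0.801 in pollen 52.

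Positions of named sites follow the deposited tables, for whose build no gene annotation was used here. The ND67-only site at chr5:71090739-71090747 had relative abundances of 0.552 and 0.774 in the endosperm and 1.14 and 1.02 in the pollen of ND67 plants 42 and 52. Across the 10 ND58 libraries it had 1 count, in endosperm 107. The site at chr7:176807341-176807349 had 0.614 and 0.827 in ND67 endosperm and 1.06 and 0.915 in ND67 pollen, and 1 count in ND58. Both therefore stood near the level of sites present in the whole plant in ND67 and near zero in ND58.

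At chr1:247189133-247189141 the ND67 endosperms 42 and 52 had 0.547 and 0.724 and the pollen 0.991 and 0.925, with 1 count in ND58. At chr1:246411645-246411653 the values were 0.483 and 0.598 in ND67 endosperm and 0.874 and 0.801 in ND67 pollen, and at most 0.000318 in ND58. These are the linked pair of chromosome 1. At chr7:176964046-176964054 the ND67 values were 0.592 and 0.716 in endosperm and 0.888 and 0.796 in pollen, whereas ND58 libraries other than endosperm 105 had 2 to 21 counts each, at most 0.00319. That site was thus not at 0 in ND58, but its highest ND58 level was far below its lowest ND67 level.

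Of the ND58-only sites, the one at chr9:24543207-24543215 was held by all 5 ND58 plants and had 0 counts in all 4 ND67 libraries. Its relative abundance in ND58 plants 85, 99, 105, 106 and 107 was 0.998, 0.902, 0.287, 0.412 and 0.571 in endosperm and 0.792, 0.831, 0.606, 0.680 and 0.617 in pollen. The pollen values lay closer together than the endosperm values. The sites at chr4:238881910-238881918 and chr4:213569422-213569430 were held by ND58 plants 85, 99, 105 and 107, had 0 counts in ND67, and averaged 0.823 and 0.731 in the pollen that held them. In plant 106, which lacked both, each had 1 count in endosperm and 7 in pollen.

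The site at chr7:25221853-25221861 was held by ND58 plants 85, 99 and 106, with 1.21, 0.843 and 0.862 in pollen, and had 2 counts in ND67, both in pollen 52. The site at chr3:166960668-166960676 was held by ND58 plants 99, 106 and 107, with 1.04, 0.908 and 0.712 in pollen and 3 counts or fewer in any ND67 library or in pollen 85. Endosperm 85, however, had 0.149 at that site, against 0.985 in endosperm 99, while its pollen had 3 counts.

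Of the 24 sites held by both families, 13 were held by both ND67 plants. The site at chr9:11958559-11958567 was held by all 7 plants, with 0.957 and 0.864 in ND67 pollen, and 1.03, 0.908, 0.882, 0.756 and 0.607 in the pollen of ND58 plants 85, 99, 105, 106 and 107. The site at chr6:94323134-94323143 was held by every plant except ND58 plant 106, with 1.30 and 1.17 in ND67 pollen and a mean of 1.17 in the ND58 pollen that held it. The site at chr9:136247600-136247608 was held by every plant except ND58 plant 105, with 1.30 and 1.18 in ND67 pollen and a mean of 1.09 in ND58 pollen. Abundance at the 24 sites was tested with edgeR's quasi-likelihood test across all sites with at least 10 counts in 2 or more of the 7 libraries of a tissue, and 0 of the 24 were called in either tissue. Of these 24, 0 had an unadjusted p under 0.05 with edgeR or with DESeq2, and their median log2 fold change, ND67 over ND58, was -0.08 in endosperm and 0.29 in pollen, against -0.38 and 0.55 over all sites tested. These sites were chosen because both families hold them, and 11 of the 24 were held by 1 of the ND67 plants only, so the fit mixes presence with abundance and no likeness is read from it.

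The same fit called 6 sites higher in ND67 endosperm (0.555% of 1081 tested) and 1 lower (0.0925%), and 5 higher in ND67 pollen (0.502% of 996) and 1 lower (0.1%). All of these calls were family-only sites, which had been chosen by their absence from the other family, so nothing is read from them. A family-only site held by a single plant could rarely reach the count needed in 2 libraries: 9 of the 76 ND67-only sites and 37 of the 153 ND58-only sites were tested in endosperm, and 8 and 43 in pollen. DESeq2 called 14 higher and 49 lower in endosperm and 25 higher and 20 lower in pollen, and without ND67 plant 42 or 52 edgeR called 1 or 0 higher in endosperm and 0 higher in pollen.

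On average, pairs of plants of the same family shared more of their inherited sites than pairs of different families. The margin was small and depended in part on ND58 plant 99. The average within families rests on 10 ND58 pairs and 1 ND67 pair. The ND67 plants 42 and 52 shared 20 of the 102 sites that either held (19.6%). The 10 pairs of ND58 plants shared 5 to 26 sites (5.15% to 28.8%, median 18.2%). The 10 pairs of an ND67 and an ND58 plant shared 6 to 17 sites (5.26% to 17.9%, median 13.4%). Averaged over pairs, sharing was 18.9% within families and 12.9% between them, a difference of 6.05 percentage points (exact permutation of plants between families, two-sided, p = 0.0476, the smallest possible, adjusted over 11 tests p = 0.175). The difference was 3.02 points without ND58 plant 99 (exact permutation test, p = 0.333, smallest possible 0.0667). Without ND58 plant 85 alone it was 5.96 points (exact permutation test, p = 0.133, smallest possible 0.0667). Without ND58 plants 85 and 99 it was 2.47 points (exact permutation test, p = 0.4, smallest possible 0.1). The difference thus rested in part on plant 99, and changed little without plant 85 alone. Endosperms 85 and 99 were those with traces of other plants' sites, and the part of these in the result was not tested.

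Single pairs did not follow the family. ND58 plants 105 and 106 shared 5 of 97 sites (5.15%), the lowest share of all 21 pairs. ND67 plant 42 and ND58 plant 85 shared 15 of 84 (17.9%), more than 4 of the 10 ND58 pairs. Of the 20 sites shared by the ND67 plants, 7 were absent from ND58 (35.0%). In the ND58 pairs, 17.6% to 60.9% of shared sites were absent from ND67, with the ND67 pair inside that range. The share of a plant's inherited sites that were also held in the other family was 34.5% and 26.9% in ND67 plants 42 and 52, against 20.8% to 40.9% in ND58 plants.

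**Figure D2:**
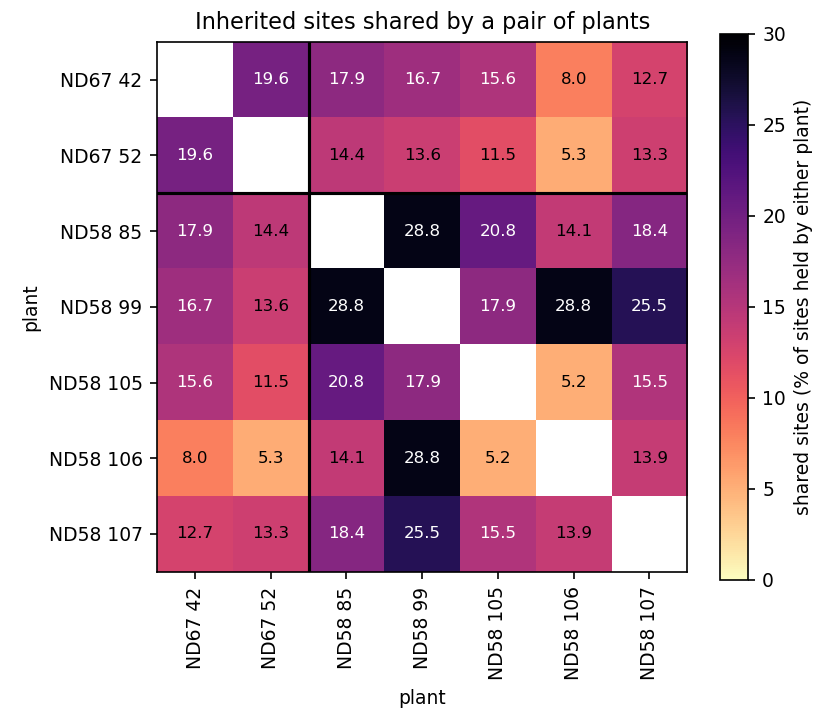
Inherited sites shared by each pair of the 7 plants, as a percentage of the sites that either plant held, with a line between ND67 and ND58. The ND67 pair is at 19.6%, the ND58 pairs run from 5.15% to 28.8%, and the pairs between families from 5.26% to 17.9%.

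Properties of the inherited sites beyond those used to choose them were described and not tested. Most sites were read at both borders, with 52 of 55 and 64 of 67 in ND67 endosperm. In endosperm of ND58 plants 85, 99, 105, 106 and 107 these were 42 of 44, 43 of 50, 41 of 49, 47 of 53 and 69 of 78. In pollen these were 48 of 55 and 61 of 67 in ND67. In pollen of the ND58 plants, in the same order, they were 38 of 44, 43 of 50, 40 of 49, 46 of 53 and 64 of 78. The share in pollen was thus higher in both ND67 plants than in every ND58 plant, though plant 42 was close to the highest of them. The left border gave a median of 48.0% to 51.3% of a site's counts in the ND67 libraries and 48.3% to 54.0% in the ND58 libraries. Of all 256 sites, 11 did not span the usual 9 bp, and 0 lay within 20 bp of another inherited site. The family-only sites lay on all 10 chromosomes in both families, with 13 of the 76 ND67-only sites on chromosome 1 and 2 on chromosome 6, and 20 and 16 of the 153 ND58-only sites on those chromosomes.

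The abundance of family-only sites was compared within each tissue. In pollen their median relative abundance was 0.933 and 0.925 in ND67 plants 42 and 52. It was 1.00, 0.845, 0.982, 0.773 and 0.670 in ND58 plants 85, 99, 105, 106 and 107. The ND67 values lay inside the ND58 range, and the means, 0.929 ± 0.00594 in ND67 (SD, n = 2) and 0.854 ± 0.140 in ND58 (SD, n = 5), were 0.0748 apart (two-sided exact permutation test, p = 0.524, adjusted p = 0.857). With library totals as the scale this difference was -0.203.

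In endosperm the medians were 0.550 and 0.769 in ND67 plants 42 and 52. They were 1.37, 0.890, 0.343, 0.437 and 0.744 in ND58 plants 85, 99, 105, 106 and 107. ND58 endosperms spanned a wider range than the gap between the families, and the means of 0.660 ± 0.155 in ND67 (SD, n = 2) and 0.757 ± 0.409 in ND58 (SD, n = 5) gave a difference of -0.0973 (two-sided exact permutation test, p = 0.857, adjusted p = 0.857). Without ND58 plant 85 the difference was 0.0562, and without ND58 plants 85 and 99 it was 0.153. The 7 endosperms had the same order at the sites held by both families, where the median was 0.603 and 0.912 in ND67, against 1.72 in plant 85 and 0.339 in plant 105 of ND58.

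**Figure D3:**
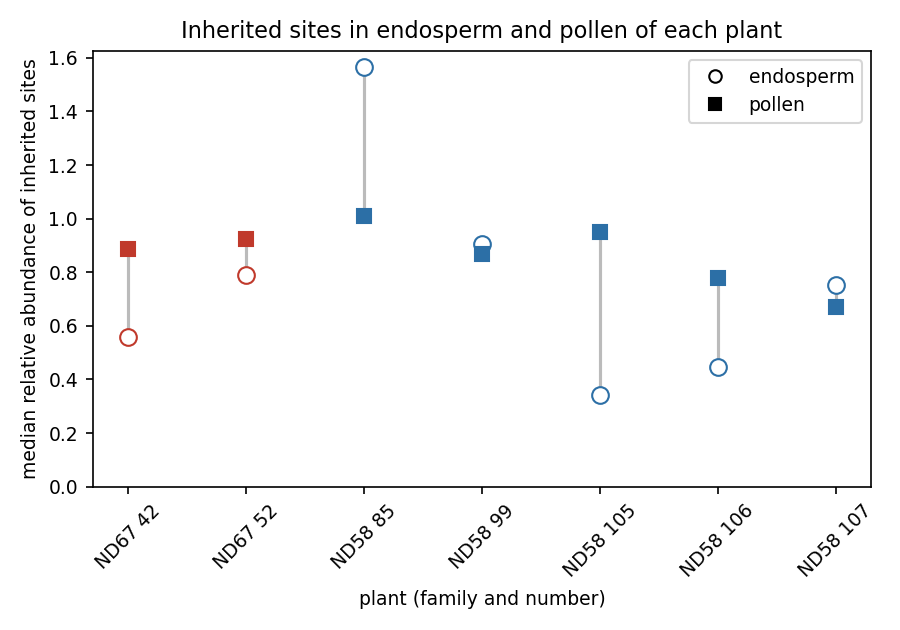
Median relative abundance of all inherited sites of each plant in endosperm (open circles) and pollen (filled squares), ND67 in red and ND58 in blue. Pollen medians lie between 0.670 and 1.01 in all 7 plants, whereas endosperm medians run from 0.341 in plant 105 to 1.57 in plant 85, both of ND58.

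Within a plant, the relative abundance of inherited sites was higher in pollen than in endosperm in both ND67 plants. The log2 ratios of the medians were 0.67 in plant 42 and 0.23 in plant 52. In ND58 the ratio was positive in plants 105 (1.48) and 106 (0.80) and negative in plants 85 (-0.63), 99 (-0.06) and 107 (-0.16). The reference sites are sites of the Mu-inactive parent, and their own level in each tissue enters these ratios. Its part in them was not tested. Sites at 0.1 or more in pollen but under 0.01 in the endosperm of the same plant numbered 23 in each ND67 plant, and 10, 5, 11, 7 and 14 in ND58 plants 85, 99, 105, 106 and 107, so both ND67 plants lay above every ND58 plant. This count was examined after the values were seen and was not tested. Of the 23 sites, 19 in plant 42 and 18 in plant 52 had 0 counts in endosperm, and 8 and 10 were seen in no other plant. In ND58 plants 85, 99, 105, 106 and 107, 5, 1, 0, 2 and 8 were seen in no other plant. Plant 107 thus equalled ND67 plant 42 in that number. Sites at 0.1 or more in endosperm but under 0.01 in pollen were fewer: 0 and 2 in ND67, and 16 in plant 85 and 0 in the other 4 plants of ND58. Of the 16 sites in endosperm 85, 15 were also detected in other plants, and all 16 were between 0.103 and 0.182, below the lowest ND58-only inherited site of that endosperm, at 0.589.

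New sites were counted as those detected in the libraries of a single plant in the series and not inherited by that plant. Most other plants of the series are named ND58, so ND58 plants were screened against more plants of their own family than ND67 plants were. The new site load is the sum of the counts of new sites over the reference level. In the Mu-inactive leaf libraries, the background of the method, it was 0.0128 to 0.0813, the highest single site was at 0.000205 and 0 sites were abundant. The lowest load among the 14 libraries of the families was 4.64.

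In pollen the new site load was higher in both ND67 plants than in every ND58 plant. It was 19.2 and 36.2 in pollen of ND67 plants 42 and 52. It was 10.2, 9.56, 14.04, 12.5 and 15.1 in pollen of ND58 plants 85, 99, 105, 106 and 107. The families did not overlap, and the means were 27.7 ± 12.02 in ND67 (SD, n = 2) and 12.3 ± 2.37 in ND58 (SD, n = 5). On the log2 scale the difference was 1.12, or 2.18-fold between geometric means (two-sided exact permutation test, p = 0.0476, the smallest the design allows, adjusted over 11 tests p = 0.175). With both ND67 plants above every ND58 plant, this is the most extreme arrangement, and the adjusted p could not have passed given the other tests. The difference was 0.66 without ND67 plant 52 and 0.58 with library totals as the scale. With the library's median count at the plant's inherited sites as the scale it was 1.02 (exact permutation test, p = 0.0952). With sites of at least 10 counts it was 1.13 (exact permutation test, p = 0.0952). In these last settings it was no longer at the smallest possible p. New sites took 14.3% and 19.6% of all counts in ND67 pollen and 9.69% to 12.7% in ND58 pollen. With 5 further ND58 plants sampled in both tissues the difference was 1.39 (exact permutation test, p = 0.0152, adjusted p = 0.0556). Of the added pollen libraries, those of plants 75, 78, 79 and 83 were far shallower, with reference levels of 451, 677, 95.5 and 293, and that of plant 76 had 4586.

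Distinct new sites were counted at equal depth, after thinning every pollen library to a reference level of 2658.5. ND67 pollen then held 23055 and 34421 distinct new sites in plants 42 and 52. ND58 pollen held 10907, 14334, 19083, 15318 and 11826 in plants 85, 99, 105, 106 and 107. Both ND67 plants were above every ND58 plant, by 1.01 on the log2 scale or 2.01-fold (two-sided exact permutation test, p = 0.0476, adjusted p = 0.175). Taken to equal library totals instead, the difference was 0.67 (exact permutation test, p = 0.0952). It was 0.84 with both borders read (exact permutation test, p = 0.190) and 0.84 with at least 2 counts (exact permutation test, p = 0.143). Without thinning it was 0.73 (exact permutation test, p = 0.143). Under these settings the difference was no longer at the smallest possible p. Sites also seen in other plants but at least 10 times more abundant in the plant itself were added in another count, chosen after seeing the data. It raised the pollen load to 30.3 and 57.5 in ND67, and to 16.0, 13.7, 22.6, 20.1 and 25.3 in ND58 plants 85, 99, 105, 106 and 107, with a log2 difference of 1.13.

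In endosperm the families overlapped. The new site load was 4.94 and 9.92 in endosperm of ND67 plants 42 and 52. It was 14.8, 7.505, 5.89, 4.64 and 13.0 in endosperm of ND58 plants 85, 99, 105, 106 and 107. The log2 difference was -0.25 (two-sided exact permutation test, p = 0.667, adjusted p = 0.857), within the spread of the ND58 plants. It was -0.01 without ND58 plants 85 and 99, whose endosperms held traces of other plants' sites, and it turned to 0.26 without ND67 plant 42. At a reference level of 767.5, ND67 endosperm held 3443 and 6219 distinct new sites. ND58 endosperm held 8854, 4953, 3149, 3024 and 8321 in plants 85, 99, 105, 106 and 107. That log2 difference was -0.14 (two-sided exact permutation test, p = 0.810, adjusted p = 0.857), and it turned to 0.06 without ND58 plant 85, to 0.03 without ND58 plant 107 and to 0.28 without ND67 plant 42.

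**Figure D4:**
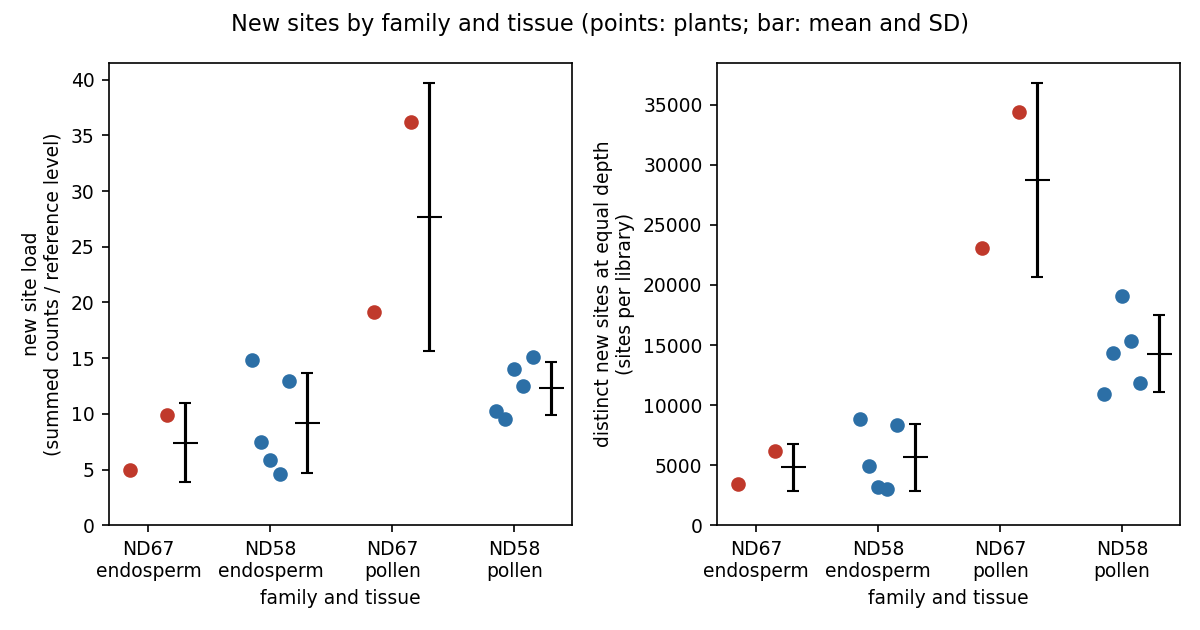
New site load (left) and distinct new sites at equal depth (right) per library in ND67 (red) and ND58 (blue), with the mean and SD of each group beside its points (n = 2 and n = 5). Equal depth is set within each tissue, so the right panel is read within endosperm and within pollen; in pollen both ND67 points lie above all 5 ND58 points, and in endosperm the families overlap.

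The change of load from endosperm to pollen of the same plant was compared between families with the plant as a block. The load was higher in pollen in every plant except ND58 plant 85, with 14.8 in endosperm and 10.2 in pollen. Pollen minus endosperm log2 load averaged 1.91 ± 0.0641 in ND67 (SD, n = 2) and 0.54 ± 0.805 in ND58 (SD, n = 5). The difference of 1.37 was not past the threshold (exact permutation test over plants, two-sided, p = 0.143, adjusted p = 0.314), although both ND67 plants lay above every ND58 plant. Without the plant as a block the same difference had p = 0.0839 (permutation of each tissue's labels apart). With library totals as the scale it was 0.83 (exact permutation test, p = 0.0476, adjusted p = 0.175). With all ND58 plants, several with shallow pollen libraries, it was 1.36 (exact permutation test, p = 0.0152, adjusted p = 0.0556). Without ND58 plants 85 and 99 it was 0.94 (exact permutation test, p = 0.2, adjusted p = 0.733). A difference between tissues in how the families compare was therefore not shown past the adjusted threshold.

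Abundant new sites were those at 0.01 or more with at least 10 counts. Pollen of ND67 plants 42 and 52 held 75 and 223. Pollen of ND58 plants 85, 99, 105, 106 and 107 held 52, 36, 46, 57 and 154, so plant 107 lay between the ND67 plants. The means were 149 ± 105 in ND67 (SD, n = 2) and 69.0 ± 48.2 in ND58 (SD, n = 5), a difference of 80.0 (two-sided exact permutation test, p = 0.0952, adjusted p = 0.262). With library totals as the scale the difference was -6.10, and without ND67 plant 52 it was 6. Endosperm held few abundant new sites, 3 and 11 in ND67 and 46, 9, 8, 5 and 5 in ND58 plants 85, 99, 105, 106 and 107 (difference of means -7.60, exact permutation test, two-sided, p = 0.762, adjusted p = 0.857). Without ND58 plant 85 that difference was 0.250.

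The pollen load was split at a relative abundance of 0.01. The load of sites under 0.01 was 15.8 and 29.9 in ND67 pollen and 8.67 to 13.1 in ND58 pollen, a ratio of means of 2.20. The load of sites at 0.01 or more was 3.40 and 6.32 in ND67 pollen and 0.891 to 4.67 in ND58 pollen, a ratio of 2.52, where ND58 plant 107 lay between the ND67 plants. The sites at 0.01 or more made up 17.7% and 17.5% of the load in ND67 pollen and 6.82% to 31.0% in ND58 pollen. Sites of the highest class, at 0.1 or more, numbered 8 and 10 in ND67 pollen, and 5, 1, 0, 2 and 8 in pollen of ND58 plants 85, 99, 105, 106 and 107. At 0.05 or more they numbered 17 and 13 in ND67 pollen, and 6, 2, 1, 7 and 20 in those ND58 plants. Plant 107 thus lay above both ND67 plants at that cut. These splits of the load were described and not tested.

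**Figure D5:**
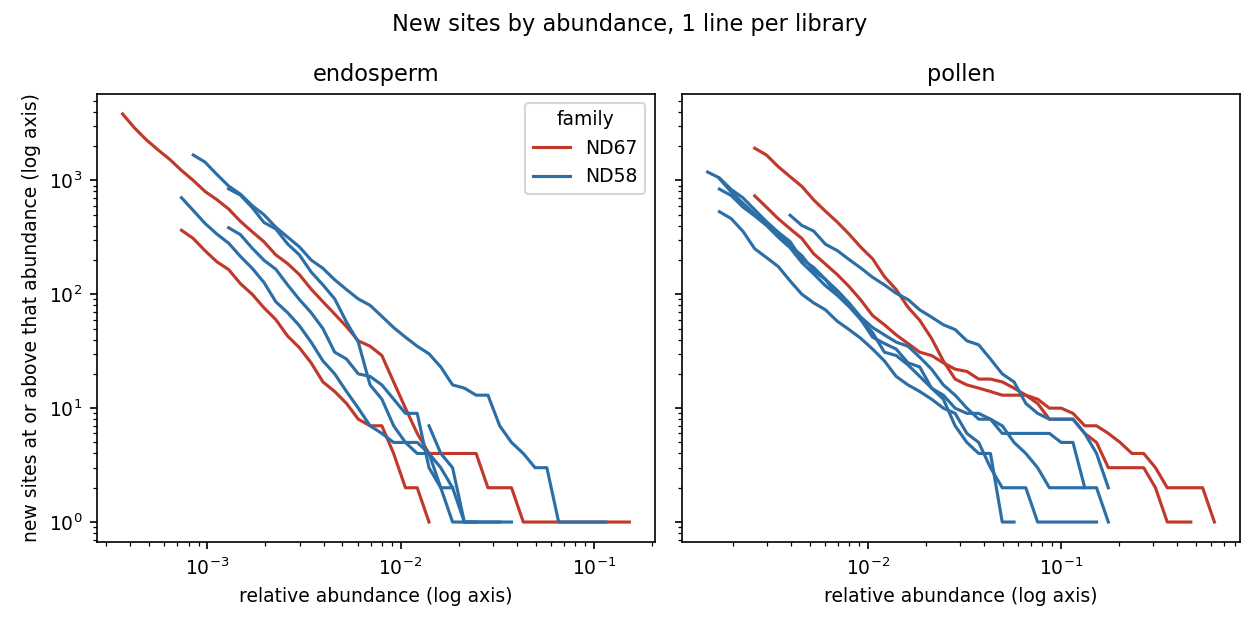
Number of new sites at or above each relative abundance (both axes log) in endosperm and pollen, 1 line per library, ND67 in red and ND58 in blue, drawn from the abundance that corresponds to 10 counts upward. In pollen the ND67 lines lie above most ND58 lines at low abundance and reach the highest values, 0.681 and 0.482. The line of ND58 plant 107 lies between those of ND67 plants 42 and 52 at 0.00921 (170 sites against 89 and 259). It lies above both at 0.0283 (49 sites against 22 and 18).

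The most abundant new sites with both borders read lay in plant 52 of ND67 and in plants 85 and 107 of ND58. In pollen of ND67 plant 52 the new site at chr4:11001819-11001827 had a relative abundance of 0.681 (2631 counts) and that at chr4:160911135-160911143 had 0.619 (2389 counts, 95% interval 0.594 to 0.644). Both had 0 counts in endosperm 52. In ND58 pollen the highest were at chr6:168417719-168417727 with 0.186 (495 counts, 0.170 to 0.203) and at chr2:8954425-8954433 with 0.183 (487 counts, 0.167 to 0.2002), both in plant 107. These ND58 sites also had 0 counts in the endosperm of their plant. The 4 sites were read at similar counts from both borders, such as 1324 left and 1307 right at chr4:11001819-11001827 and 247 left and 248 right at chr6:168417719-168417727.

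In endosperm of ND67 plant 52 the highest new sites were at chr7:89724394-89724402 with 0.174 (5097 counts, 0.170 to 0.179) and at chr3:5446253-5446261 with 0.0383 (1120 counts, 0.0361 to 0.0406). In endosperm of ND58 plant 85 they were at chr9:131767527-131767535 with 0.124 (1494 counts, 0.118 to 0.130) and at chr5:82186858-82186866 with 0.0652 (786 counts, 0.0607 to 0.0699). All 4 had 0 counts in the pollen of their plant. The intervals are exact Poisson bounds on the count divided by the reference level and cover counting error only. The rule for new sites cannot tell an insertion made in the plant from one that reached the embryo or the endosperm alone.

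Few new sites were seen in both tissues of a plant. The new sites with counts in endosperm and pollen numbered 289 and 637 in ND67 plants 42 and 52, and 238, 201, 25, 203 and 152 in ND58 plants 85, 99, 105, 106 and 107. They carried 0.885% and 2.46% of the pollen load in ND67 and 0.404% to 1.48% in ND58. The depth of the endosperm library, lowest in plant 105, limits these numbers. Sites within 20 bp of an inherited site of the plant made up 0.568% and 0.593% of new sites in ND67 endosperm and 0.287% to 1.65% in ND58 endosperm. In pollen they were 0.0588% and 0.0569% in ND67 and 0.0415% to 0.0930% in ND58, and leaving them out gave a log2 load difference of 1.12 in pollen.

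The ND67-only sites were also looked up in the other plants of the series. Of the 76, 17 were at 0.1 or more in plant 74, which the labels place in ND58 and whose endosperm label adds B73 MuKiller. These 17 were at 0.1 or more in every one of the endosperm, leaf, root and pollen libraries of plant 74. Plant 42 held 14 of them and plant 52 held 10, and they included all 7 sites held by both ND67 plants. Over the 57 sites at 0.1 or more in its endosperm, leaf and root, plant 74 shared 45.5% with ND67 plant 42 and 29.2% with ND67 plant 52, against 16.5% to 33.8% with the 5 ND58 plants. The share with plant 42 was higher than that of any of the 21 pairs among the 7 plants. Endosperm 61, whose label also adds B73 MuKiller, had 4 ND67-only sites at 0.1 or more, and endosperm 83 of ND58 had 1. Plant 69, whose pollen is ND58 in its title and ND67 in its description, had 0 ND67-only sites and 17 ND58-only sites at 0.1 or more in each of its endosperm, root and pollen. Plants 61, 69 and 74 entered no family comparison here.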

How the data were processed

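The authors deposited whole-number counts per insertion site, in a table of both borders and a table for each border. Bowtie2 is named in the submitters' processing notes; the sources used here do not give its version, the build, the insertion caller, filters or any use of molecular identifiers. Of 2253850 sites, 99.9942% span 9 bp. The highest position on chromosome 1, 310879913, lies past the last gene end, 308332590, of the B73 gene table at hand, so no gene context or sequence was used.

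Families were taken from plant names and plants were the replicates; endosperm and pollen were paired because the labels give the same plant. Families share no plant, so only the comparison of tissues had a block. The 11 exact permutation tests were adjusted by Benjamini-Hochberg with a threshold of 0.05. Per-site fits used edgeR 4.0.16 (DESeq2 1.42.0 as an alternative, R 4.3.3) with reference levels as library sizes. Other steps used Python 3.11.15, numpy 2.4.6, pandas 2.3.3, scipy 1.17.1 and matplotlib 3.10.9, and were tested on simulated data. Counts after PCR may repeat a molecule, so intervals and floors include no error beyond counting error, and p-values measure the spread between these plants.

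Named sites were the 5 family-only sites per family held in the most plants, the 3 shared sites held in the most plants, the 2 most abundant new sites per family and tissue with both borders read, and the 3 sites of smallest p per direction and tissue. Ties went to the higher pollen abundance. Members, definitions and tests were chosen with earlier results of these data known.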

Additional observations from a re-analysis of the deposited data

Results flagged for a closer look

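Among 19 sets of 5 ND58 values, 6 had a plant far from the others by Dixon's test, which chance alone flags in about 1 of 20 sets. Plant 107 had 78 inherited sites, 154 abundant new sites in pollen and the lowest pollen reference level, 2658.5. Plant 85 had 16 sites at 0.1 or more in endosperm alone, 46 abundant new sites in endosperm and the highest new site in ND58 endosperm, at 0.124. The ND67 group, with 2 plants, cannot be examined this way.

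Outside the families compared, endosperm 74 held 17 ND67-only inherited sites at 0.1 or more and endosperm 61 held 4. Both carry the B73 MuKiller label. Why plants labelled ND58 hold them was not tested.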

How the results depend on the processing

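Under 161 alternative values of the 11 tested results, 0 had an adjusted p under 0.05 (exact permutation tests; lowest adjusted p 0.0556, with all ND58 plants). This says little, since with 2 against 5 plants all 11 tests would have to stand at the smallest p, and with a plant left out none can pass. With 2 against 10 plants 4 tests at the smallest p would suffice. The higher pollen load of ND67 kept its direction under all 17 alternatives (log2 difference 0.58 to 1.58), and distinct pollen sites under all 16 (0.67 to 1.34). Results that changed sign were not past the threshold in either direction, and the cause was not tested. With library totals as the scale, the pollen median of family-only sites differed by -0.203 and abundant pollen sites by -6.10. The endosperm load difference was 0.0278 with all ND58 plants, 0.22 with at least 5 counts and 0.45 with at least 10. Distinct endosperm sites differed by 0.25 with both borders read, 0.25 with at least 2 counts, 0.0771 with all ND58 plants and 1.09 without thinning. Abundant endosperm sites differed by 0.300 at a cut of 0.1. Without ND58 plants 85 and 99 the endosperm differences were 0.153 (median of family-only sites), 0.11 (distinct sites) and 1 (abundant sites). With absence as 0 counts, 38 sites were ND67-only and 96 ND58-only, and with all ND58 plants 247 were ND58-only.

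Calls per site moved most. In endosperm, higher and lower calls were 14 and 49 with DESeq2, 10 and 5 with all ND58 plants, 22 and 9 with at least 1 count in 2 libraries, 0 higher with both borders and 2 lower with at least 50 counts. In pollen they were 25 and 20 with DESeq2, 33 and 2 with all ND58 plants, 0 and 0 with at least 1 count (4135 sites with unadjusted p under 0.05), 0 and 0 without ND58 plants 85 and 99 (60 such sites), and 8 higher with at least 50 counts. At least 1 count in 2 libraries raised the sites tested to 75649 in endosperm and 50861 in pollen.

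Leaving out each plant in turn gave 0 to 6 higher and 0 to 6 lower calls in endosperm, and 0 to 6 and 1 to 3 in pollen. It gave 34 to 76 ND67-only and 108 to 159 ND58-only sites, and differences of 0.2 to 12.2 inherited sites, 0.0302 to 0.0857 in shared fraction, -0.216 to 0.0562 (endosperm) and 0.0288 to 0.112 (pollen) in median abundance, -0.75 to 0.26 and 0.66 to 1.58 in log2 load, -0.57 to 0.28 and 0.72 to 1.30 in log2 distinct sites, -11.6 to 0.250 and 6 to 154 abundant sites, and 1.10 to 1.59 in pollen minus endosperm load. The endosperm median turned to 0.00179 and the endosperm load and distinct sites to 0.26 and 0.28 without ND67 plant 42. Without a plant the smallest possible p is 0.167 or 0.0667 (exact permutation).

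The plant pairs endosperm with pollen, and without this replicate block the difference between families in pollen minus endosperm load was 1.37 (permutation p = 0.0839), on the same side of the threshold. Reference levels of 767.5 in endosperm 105 and 2658.5 in pollen 107 limit the count of distinct sites.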

Other observations

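New sites were spread over all 10 chromosomes in both families. On chromosome 9, 6.99% and 7.05% of new sites in ND67 endosperm and 7.10% and 7.22% in ND67 pollen lay there, against 7.24% to 8.73% in ND58 endosperm and 7.25% to 7.72% in ND58 pollen. Both ND67 plants were thus below every ND58 plant in both tissues. In endosperm the share on chromosome 1 was 16.9% and 17.2% in ND67 and 16.0% to 16.7% in ND58, whereas in pollen the families overlapped on that chromosome. On chromosome 10 the share in pollen was 6.72% to 6.73% in ND67 and 6.26% to 6.71% in ND58. In endosperm the families overlapped on chromosome 10. These shares were examined for every chromosome after the values were seen, and they were not tested.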
